A study of Mus musculus with 12 samples.

Results

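A set of 9 genes of neurogenesis was followed in embryonic cranial motor neurons: the proneural transcription factors *Neurog1*, *Neurog2*, *Neurod1*, *Neurod4* and *Atoh1*, the ligand *Dll1*, the receptor *Notch1*, and the Notch effectors *Hes1* and *Hes5*. They were taken by symbol from tables of 49671 genes. All 9 were found, and all 9 were among the 18022 genes with enough counts to be tested. The low levels of *Atoh1*, with 62 counts over 12 libraries, leave little to compare for that gene.

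The libraries were bulk RNA-seq of cells that carry the Isl1MN:GFP reporter, in which GFP is driven by motor neuron regulatory sequence of *Isl1*. The embryos were labelled wild type and came from C57BL/6J females crossed with Isl1MN:GFP males on a 129S1/C57BL/6J background, and their sex was not determined. Cells were taken at embryonic day e10.5 or e11.5 from 3 dissected nuclei, called cMN3 (oculomotor), cMN4 (trochlear) and cMN7 (facial), and GFP-positive cells were purified by fluorescence-activated cell sorting, with 2 replicates in each of the 6 groups. Embryos of several litters were merged into each sample, so a replicate is a pool and not an animal. For e11.5 the poly(A) RNA was captured on oligo-dT beads, with globin and ribosomal RNA removed, whereas RNA at e10.5 was amplified from the whole transcriptome. Age and library preparation therefore cannot be told apart in any difference between e11.5 and e10.5.

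Proneural factors are basic helix-loop-helix proteins that bind DNA at E-boxes and drive progenitors out of the cell cycle and into neuronal differentiation. They switch on *Dll1*, whose protein activates Notch receptors on neighbouring cells; the cleaved receptor then joins the DNA-binding protein RBPJ and turns on *Hes1* and *Hes5*, repressors that keep the neighbour a progenitor. *Neurog1* and *Neurog2* act early, while *Neurod1* and *Neurod4* follow in cells that are becoming neurons, and *Atoh1* is best known from the rhombic lip.

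Promoter sequence was read from RefSeq (GRCm38.p6) for the 3 members that passed a test between nuclei over both ages, since those are the members whose RNA set the nuclei apart. Each window runs from 250 bases before a start site to 50 bases after it. Windows were found for 8 of the 9 members, 10 windows in all, and none for *Hes1*. Capitals mark matches on either strand to the RBPJ core, which reads GTGGGAA, or to any of 3 E-box forms. Other E-box forms were not searched for and stay in lower case, such as CACCTG in the *Hes5* window and CAGGTG in the *Dll1* window. The E-box CAGCTG reads alike on both strands, the E-box CAGATG is found as CATCTG on the other strand, and the E-box CATATG again reads alike on both. The windows shown are *Hes5* at chr4:154960673-154960972 on the plus strand, *Dll1* at chr17:15376883-15377182 on the minus strand and *Neurod1* at chr2:79456587-79456886 on the minus strand.
Hes5: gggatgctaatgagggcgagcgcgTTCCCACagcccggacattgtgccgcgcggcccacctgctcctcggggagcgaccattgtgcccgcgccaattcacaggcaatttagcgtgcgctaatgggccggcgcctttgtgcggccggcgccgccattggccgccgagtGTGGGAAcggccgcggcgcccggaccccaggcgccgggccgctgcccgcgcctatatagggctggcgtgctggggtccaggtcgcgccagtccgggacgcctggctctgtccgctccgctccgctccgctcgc
Dll1: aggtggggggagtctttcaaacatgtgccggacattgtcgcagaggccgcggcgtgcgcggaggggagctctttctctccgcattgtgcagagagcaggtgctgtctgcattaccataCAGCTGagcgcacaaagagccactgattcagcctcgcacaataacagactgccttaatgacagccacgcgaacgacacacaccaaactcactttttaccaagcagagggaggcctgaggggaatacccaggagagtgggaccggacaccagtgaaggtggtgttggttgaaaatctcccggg
Neurod1: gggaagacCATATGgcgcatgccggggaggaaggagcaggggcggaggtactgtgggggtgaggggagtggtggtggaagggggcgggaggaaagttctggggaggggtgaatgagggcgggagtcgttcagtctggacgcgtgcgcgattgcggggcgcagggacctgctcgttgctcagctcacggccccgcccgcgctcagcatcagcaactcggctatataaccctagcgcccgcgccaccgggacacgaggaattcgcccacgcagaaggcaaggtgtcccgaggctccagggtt
The *Hes5* window held 2 RBPJ cores, starting at bases 25 and 168 and facing opposite ways. Of 32851 windows of the same length, 6.38% held at least 1 such core and 0.256% held 2 or more. The *Dll1* window held 1 CAGCTG at base 119, and the *Neurod1* window held 1 CATATG at base 9. CAGCTG was found in 16.3% of all windows, CAGATG in 17.2% and CATATG in 3.91%. Among the other members, 1 of the 2 *Neurod4* windows held 1 CAGCTG, and the windows of *Neurog1*, *Neurog2*, *Atoh1* and *Notch1* held none of these letters. *Dll1* has another window, at chr17:15375774-15376073, which held none either. The RefSeq starts of *Dll1* and *Neurod1* differ from the gene ends given below, and the *Notch1* window (chr2:26503773-26504072) lies well inside the gene, so a window need not hold the start used in these cells. These matches describe the windows and were not tested as binding sites.

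Total expected counts per library ran from 13991802 to 30536210. All 9 motor neuron markers were detected in every library, with a summed level of 1312 to 2010 counts-per-million (CPM), among them *Isl1* at 377 to 694 CPM. Cell cycle markers, 16 genes, summed to 1009 CPM in e11.5 cMN4 replicate 2 and to 136 to 548 CPM in the other 11 libraries. Interneuron markers, 14 genes, summed to 292 and 316 CPM in cMN7 at e10.5 and to 20.8 to 42.7 CPM in the other libraries of that age. Bulk RNA cannot tell fewer cells of a type from less RNA per cell. The replicates are described as biological, and what same-numbered replicates share is not stated, so p-values measure only the spread between these samples.

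Compared per length, as transcripts-per-million (TPM), *Neurod4* was the highest member in 11 of 12 libraries, at 31.9 to 156 TPM. The exception was e11.5 cMN7 replicate 1, where *Hes5* reached 59.7 TPM. The medians over libraries were 72.5 TPM for *Neurod4*, 34.3 TPM for *Dll1*, 29.8 TPM for *Hes5*, 13.3 TPM for *Neurod1* and 13.1 TPM for *Notch1*. *Neurog2* (4.81 TPM), *Neurog1* (4.05 TPM) and *Hes1* (3.78 TPM) were lower, and *Atoh1* was the lowest member in every library, at 0.94 TPM or less. For *Hes1* this scale is unsteady, because its effective length varied from 192.5 to 1300 bases between libraries. Effective length counts the positions at which a fragment can start, averaged over the transcripts assigned to the gene. It also varied for *Hes5* (559 to 1107 bases) and *Dll1* (1590 to 2751 bases). Levels below are therefore CPM scaled by library factors, which compare 1 gene across libraries.

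**Figure D1:**
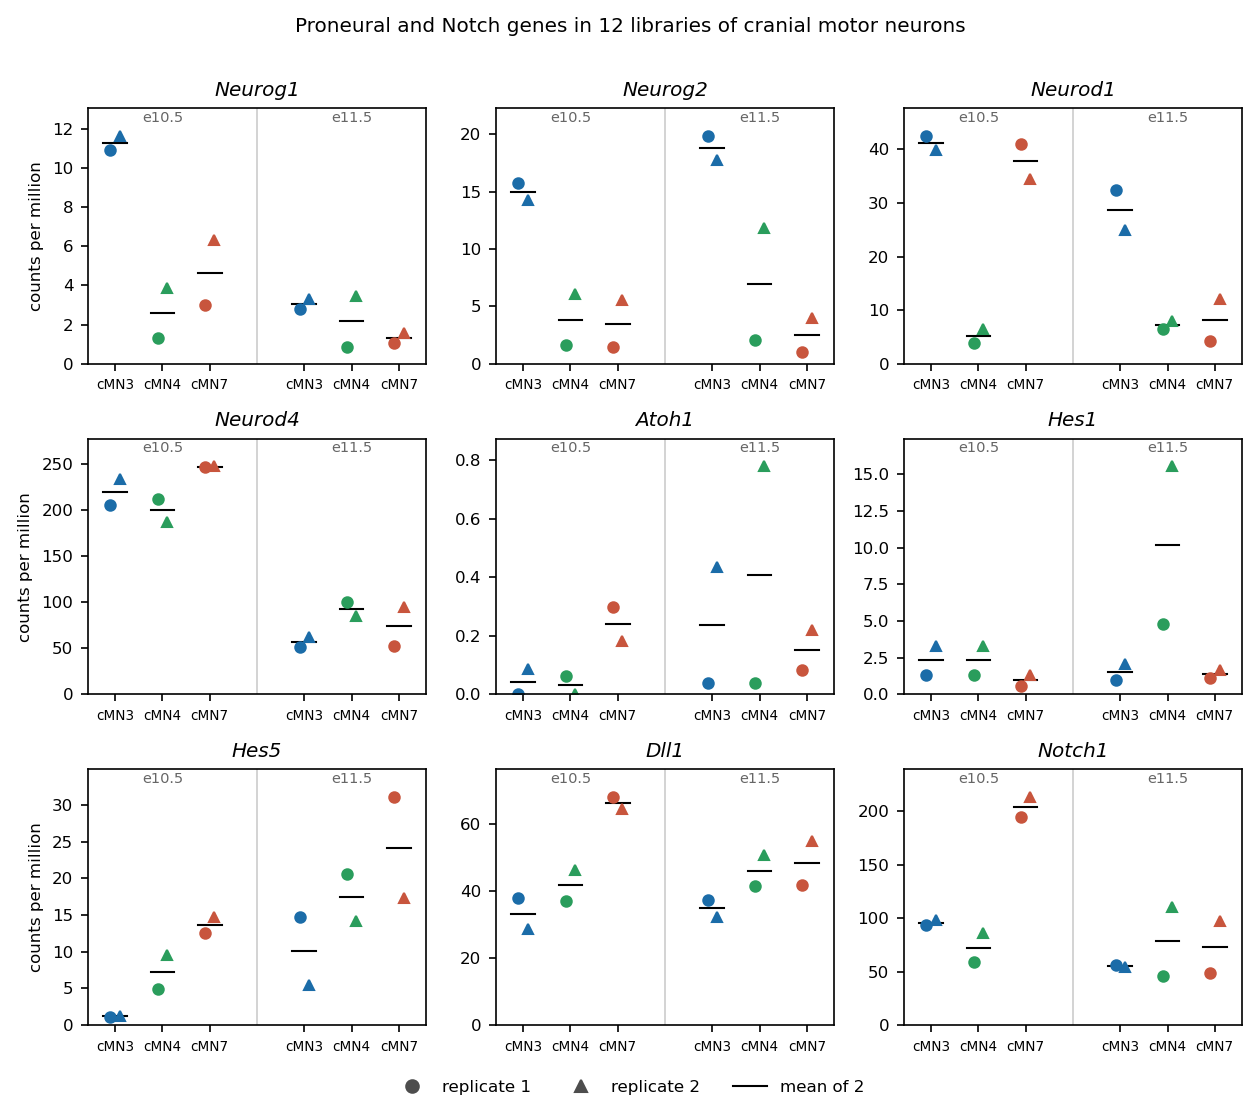
Level of each gene in each library, in CPM on a linear axis that starts at 0 and differs between genes, by nucleus and age; circles are replicate 1, triangles replicate 2 and lines the mean of 2. *Neurog2* in the 4 cMN3 libraries lay at 14.3 to 19.9 CPM, above the other 8, and *Notch1* in cMN7 at e10.5, at 194 and 213 CPM, lay above all other libraries.

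The first question was how cMN3 and cMN4, the ocular motor nuclei, differed from cMN7, the facial nucleus. At e10.5 both cMN7 libraries had more *Hes5*, *Dll1* and *Notch1* RNA than any library of cMN3 or cMN4, and none of the 9 members passed the test at e11.5. *Neurod1* at e10.5 was lower than in cMN7 in the average of cMN3 and cMN4, which rests on cMN4, since the mean level in cMN3 (41.2 CPM) was not below that in cMN7 (37.8 CPM). With both ages averaged, 2 of 9 members passed, both lower in cMN3 and cMN4 (*Hes5* and *Dll1*), against 11.2% of all genes tested (6.18% lower and 5.05% higher). At e10.5, 4 of 9 passed, all lower in the average of cMN3 and cMN4, against 6.16% of genes lower and 5.33% higher. At e11.5 the share of genes called was 4.97% (2.71% lower and 2.26% higher). There 4 members had an unadjusted p under 0.05 (*Neurog2*, *Neurod1*, *Hes1* and *Hes5*), and DESeq2 called 1, *Neurog2*. Whether the difference between nuclei changed with age was tested directly as an interaction, which called 0.755% of genes (0.311% higher and 0.444% lower) and 0 of 9 members by edgeR. Unadjusted p was under 0.05 for *Neurod1*, *Hes5*, *Dll1* and *Notch1*, and DESeq2 called 1, *Neurod1*. Without e11.5 cMN7 replicate 2, the interaction passed for 3 members, *Neurod1*, *Neurod4* (0.73, adjusted p = 0.0451) and *Notch1* (1.74, adjusted p = 0.0444).

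The median log2 fold change of cMN3 and cMN4 over cMN7 was -0.29 over the 9 members and -0.01 over all genes with both ages averaged, -0.83 and -0.05 at e10.5, and 0.80 and 0.01 at e11.5. *Atoh1*, with its few counts, is among the 9 in these medians and in those below. The e11.5 median is the value of *Neurod1*, and the next lower value was -0.02, for *Neurod4*, so it is unsteady. With a replicate block at e11.5, 4 members instead of 2 passed over both ages, *Neurog2* and *Notch1* in addition. The e10.5 comparison leans on its 2 cMN7 libraries. These had counts for 20998 and 21212 genes, against 16907 to 18016 genes in the cMN3 and cMN4 libraries of that age. Their total counts lay within the range of those libraries. The number of genes detected thus goes with the nucleus at e10.5, and its part in these differences was not tested. Without e10.5 cMN7 replicate 1 only *Hes5* still passed (1 of 9 members), and without replicate 2 none did, although the fold changes of the 4 genes stayed between -0.80 and -2.11 where their call was lost. On a TPM scale the median of all genes at e10.5 moved from -0.05 to -0.38, and the share of called genes that were higher in cMN3 and cMN4 went from 46.4% to 12.1%.

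**Figure D2:**
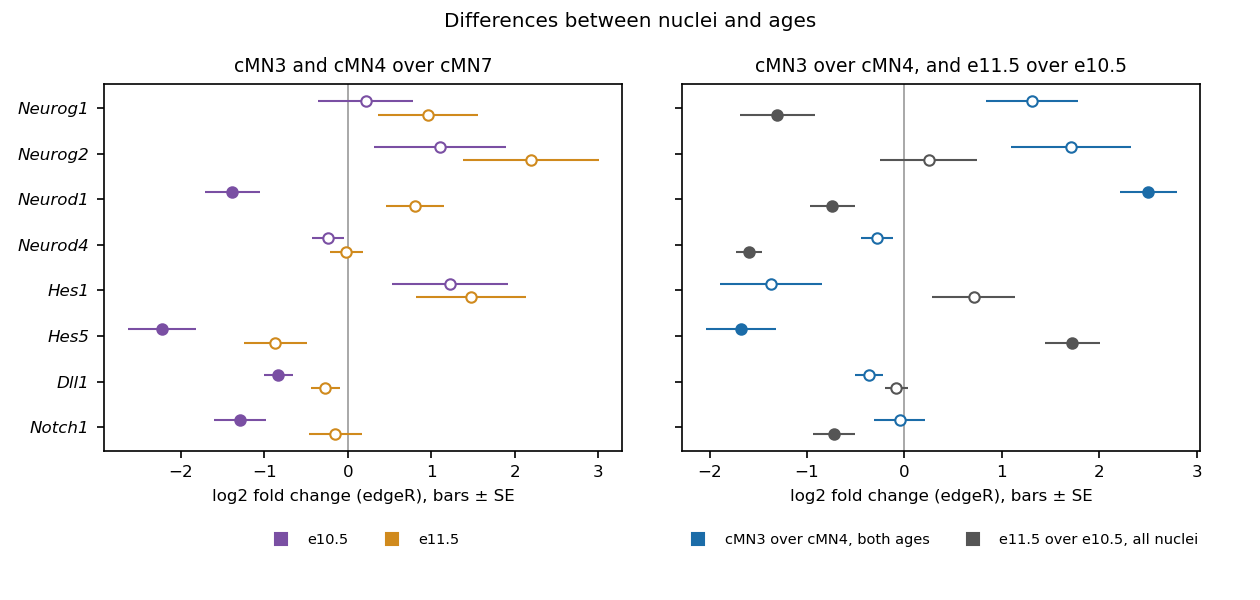
Log2 fold change of 8 members, with bars of ± 1 standard error, for cMN3 and cMN4 over cMN7 at each age (left) and for cMN3 over cMN4 and e11.5 over e10.5 (right); filled points passed the test and open points did not. At e10.5 *Hes5*, *Dll1*, *Notch1* and, through cMN4 and not cMN3, *Neurod1* were lower in the average of cMN3 and cMN4, *Neurod1* was higher in cMN3 than in cMN4, and *Neurod4* had the smallest adjusted p between ages; *Atoh1* is left out for its few counts.

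cMN3 and cMN4 were then compared with each other. *Neurod1* was higher in cMN3 and *Hes5* lower, which makes 2 of 9 members past the test against 7.06% of all genes (3.57% higher and 3.48% lower in cMN3). The median log2 fold change was -0.28 over the members and 0.00 over all genes. In tests of each age alone, which were added after the data had been seen, the same 2 members passed at e10.5 against 7.95% of genes, and *Neurod1* alone passed at e11.5 against 1.85% of genes. A replicate block at e11.5 raised the number of genes called over both ages from 1272 to 1958 and added *Neurog2*.

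Between ages, 5 of 9 members passed: *Hes5* was higher at e11.5, and *Neurog1*, *Neurod1*, *Neurod4* and *Notch1* were lower. The background is high here, since 49.8% of all genes passed (26.6% higher and 23.1% lower at e11.5). The members' median log2 fold change was -0.08 and that of all genes 0.04. On the log2(TPM + 1) scale the median of all genes moved to 0.33, the share of called genes that were higher at e11.5 went from 53.5% to 76.5%, and only *Hes5* and *Neurod4* still passed among the members. In added tests within a nucleus, *Neurod4* and *Hes5* passed in cMN3 (25.4% of genes called), *Neurod4* alone passed in cMN4 (20.4%), and *Neurod1*, *Neurod4* and *Notch1* passed in cMN7 (29.5%).

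*Neurog1* (chr13:56250478-56252163, minus strand) specifies early neurons in parallel with *Neurog2*. At e10.5 its level was 10.9 and 11.7 CPM in cMN3, 1.33 and 3.87 CPM in cMN4, and 2.98 and 6.30 CPM in cMN7. At e11.5 it was 2.78 and 3.31 CPM in cMN3, 0.863 and 3.46 CPM in cMN4, and 1.07 and 1.58 CPM in cMN7. cMN3 stood above both other nuclei at e10.5, while cMN4 and cMN7 overlapped, and all neighbouring nuclei overlapped at e11.5. *Neurog1* was lower at e11.5 (log2 fold change -1.30 ± 0.38 SE, adjusted p = 0.0151), a call lost without e10.5 cMN4 replicate 2 (adjusted p = 0.0636) or e10.5 cMN7 replicate 2 (0.0602), and with limma on log2(TPM + 1) (0.0732). Its log2 fold change of cMN3 over cMN4 was 1.31 ± 0.47 and did not pass (adjusted p = 0.128). It did pass with a replicate block at both ages (1.51, adjusted p = 0.0303) and without a filter (1.31, adjusted p = 0.0107). Without e11.5 cMN4 replicate 2 it was 1.98.

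*Neurog2* (chr3:127633135-127635631, plus strand) promotes cell cycle exit and is the proneural factor of motor neuron progenitors in the spinal cord. In cMN3 its level was 15.7 and 14.3 CPM at e10.5 and 19.9 and 17.7 CPM at e11.5. In cMN4 it was 1.64 and 6.04 CPM at e10.5 and 2.08 and 11.8 CPM at e11.5. In cMN7 it was 1.43 and 5.56 CPM at e10.5 and 0.983 and 4.01 CPM at e11.5. All 4 cMN3 libraries were above the other 8, and cMN4 and cMN7 overlapped at both ages. The replicates of cMN4 and of cMN7 were far apart, and the fold changes did not pass by edgeR. They were 1.71 ± 0.61 for cMN3 over cMN4 (adjusted p = 0.128) and 1.65 ± 0.57 for cMN3 and cMN4 over cMN7 (adjusted p = 0.0945), whereas DESeq2 called both (adjusted p = 0.0383 and 0.012). Over all genes, replicate numbers tracked each other across nuclei at e11.5. For *Neurog2* the log2 ratio of replicate 2 over 1 at that age was 2.51 in cMN4 and 2.03 in cMN7 but -0.17 in cMN3. The e10.5 ratios of *Neurog2* were close to these, 1.88, 1.96 and -0.14, although replicate numbers did not pair the samples over all genes there. With a replicate block at e11.5, which gives the 3 nuclei 1 shared term, both fold changes passed, at 1.99 (adjusted p = 0.0327) and 1.73 (adjusted p = 0.0299). The first also passed without e11.5 cMN4 replicate 2 (2.58, adjusted p = 0.0409), and the other without e11.5 cMN4 replicate 1 (1.83, adjusted p = 0.0278) or e11.5 cMN7 replicate 2 (2.32, adjusted p = 0.0473). With cMN3 alone against cMN7 the log2 fold change was 2.50 (adjusted p = 0.0245).

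*Neurod1* (chr2:79452521-79456751, minus strand) acts downstream of the neurogenins in differentiating neurons. It was high in 2 nuclei at e10.5, at 42.6 and 39.8 CPM in cMN3 and 41.0 and 34.5 CPM in cMN7, and low in cMN4, at 3.79 and 6.51 CPM. At e11.5 it was 32.4 and 24.9 CPM in cMN3, 6.43 and 7.97 CPM in cMN4, and 4.30 and 12.1 CPM in cMN7. cMN3 and cMN7 thus overlapped at e10.5 and were apart at e11.5, where cMN7 overlapped with cMN4. cMN3 exceeded cMN4 by 2.50 ± 0.29 on the log2 scale (adjusted p = 0.00037), by 3.02 ± 0.43 at e10.5 alone (adjusted p = 0.00256) and by 1.99 ± 0.40 at e11.5 alone (adjusted p = 0.0262). That difference passed in every alternative fit tried.

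Because cMN3 and cMN4 differ so much, their average over both ages hides *Neurod1* values of opposite sign against cMN7. With both ages averaged the log2 fold change over cMN7 was -0.29 ± 0.24 (adjusted p = 0.528) for cMN3 and cMN4 together, 0.96 for cMN3 alone (adjusted p = 0.0425) and -1.54 for cMN4 alone (adjusted p = 0.00474). At e10.5 the pair was lower than cMN7 (log2 fold change -1.38 ± 0.33, adjusted p = 0.0194). With cMN3 alone it was 0.13 at that age (adjusted p = 0.872), so cMN3 was near cMN7 there. The e10.5 call was also lost without cMN3 replicate 2 (adjusted p = 0.0509), cMN4 replicate 1 (0.0708), cMN7 replicate 1 (0.175) or cMN7 replicate 2 (0.0914) at e10.5. At e11.5 the pair was at 0.80 ± 0.35 (adjusted p = 0.337), and without e11.5 cMN7 replicate 2 it passed at 1.76 (adjusted p = 0.00675). With cMN3 alone the e11.5 value was 1.80 (adjusted p = 0.0239). With cMN4 alone it was -0.19 (adjusted p = 0.928), so cMN4 was near cMN7 at e11.5. Beside *Neurod1* in cMN7 at e10.5, the interneuron markers were also high. The 14 sensory ganglion markers summed to 397 and 425 CPM in those libraries, above cMN3 (266 and 322 CPM) and below cMN4 (655 and 781 CPM), and 6 of the 13 tested were lower and 2 higher in cMN3 and cMN4. The part of either list in this result was not tested.

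Within cMN7 *Neurod1* had a log2 fold change of e11.5 over e10.5 of -2.20 ± 0.40 (adjusted p = 0.00256), while it was -0.52 ± 0.38 in cMN3 (adjusted p = 0.331) and 0.51 ± 0.42 in cMN4 (adjusted p = 0.408). The interaction of the nucleus difference with age was 2.19 ± 0.48 (adjusted p = 0.0748). It passed with the replicate block at e11.5 (2.28, adjusted p = 0.021), a fit that called 537 genes instead of 136, and without e11.5 cMN7 replicate 2 (3.15, adjusted p = 0.00233), where 1562 genes were called. Averaged over nuclei *Neurod1* was lower at e11.5 (-0.74 ± 0.23, adjusted p = 0.0193). That call was lost without cMN3 replicate 1 (adjusted p = 0.0505), cMN4 replicate 2 (0.0836) or cMN7 replicate 1 (0.0589) at e10.5, without cMN3 replicate 2 (0.0587) or cMN4 replicate 1 (0.0522) at e11.5, and with limma on log2(TPM + 1) (0.293).

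*Neurod4* (chr10:130268152-130280240, minus strand) marks newly born neurons and is a target of the neurogenins. Its level at e10.5 was 206 and 234 CPM in cMN3, 211 and 187 CPM in cMN4, and 247 and 247 CPM in cMN7. At e11.5 it was 51.6 and 62.6 CPM in cMN3, 100 and 85.5 CPM in cMN4, and 52.8 and 94.7 CPM in cMN7. Every e10.5 library was above every e11.5 library. The log2 fold change between ages was -1.60 ± 0.13 (adjusted p = 5.9e-06), and it passed in all 3 nuclei: -1.94 ± 0.24 in cMN3 (adjusted p = 0.000333), -1.10 ± 0.23 in cMN4 (adjusted p = 0.00784) and -1.74 ± 0.23 in cMN7 (adjusted p = 0.000528). Between nuclei *Neurod4* did not pass, with log2 fold changes of -0.13 ± 0.14 for cMN3 and cMN4 over cMN7 (adjusted p = 0.657) and -0.28 ± 0.16 for cMN3 over cMN4 (adjusted p = 0.349). Among the 9 members *Neurod4* had the smallest adjusted p between ages.

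*Atoh1* (chr6:64729125-64731245, plus strand), the rhombic lip factor, was at or near the floor of 3 counts in 8 of the 12 libraries. It had 29 and 13 counts in replicate 2 of cMN4 and of cMN3 at e11.5, against 1 count in replicate 1 of each, and 2 and 6 counts in cMN7 at e11.5. At e10.5 it had 0 and 1 counts in cMN3, 1 and 0 counts in cMN4 and 5 and 3 counts in cMN7. The counts above 5 all came from replicate 2 at e11.5. No fold change is given here, and *Atoh1* passed none of the tests. The fold changes of *Atoh1* in the closing section rest on these few counts.

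*Dll1* (chr17:15367354-15376872, minus strand), the ligand that new neurons present to progenitors, varied least of the 9 members between the 12 libraries, from 28.5 to 68.0 CPM. Its level at e10.5 was 37.9 and 28.5 CPM in cMN3, 37.1 and 46.1 CPM in cMN4, and 68.0 and 64.4 CPM in cMN7. At e11.5 it was 37.4 and 32.3 CPM in cMN3, 41.4 and 50.7 CPM in cMN4, and 41.7 and 54.9 CPM in cMN7. cMN7 was apart from and above both other nuclei at e10.5, and it overlapped with cMN4 at e11.5. *Dll1* was lower in cMN3 and cMN4 than in cMN7, with log2 fold changes of -0.55 ± 0.12 with both ages averaged (adjusted p = 0.0109) and -0.83 ± 0.17 at e10.5 (adjusted p = 0.00883), against -0.27 ± 0.17 at e11.5 (adjusted p = 0.59). The first call was lost without e10.5 cMN7 replicate 1 (adjusted p = 0.0688) and the e10.5 call without replicate 1 (0.11) or replicate 2 (0.0732) of that group. With cMN4 alone against cMN7 the log2 fold change was -0.37 (adjusted p = 0.145) over both ages and -0.67 (adjusted p = 0.0797) at e10.5. Between ages it was -0.08 ± 0.12 (adjusted p = 0.597), and on the log2(TPM + 1) scale 0.27, where the median of all genes was 0.33.

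*Notch1* (chr2:26457903-26516663, minus strand), the receptor, showed its highest levels in cMN7 at e10.5, at 194 and 213 CPM. In cMN3 it was 93.4 and 97.9 CPM at e10.5 and 55.8 and 54.7 CPM at e11.5. In cMN4 it was 58.6 and 85.9 CPM at e10.5 and 45.9 and 111 CPM at e11.5, while the e11.5 libraries of cMN7 had 49.1 and 96.8 CPM. The 3 nuclei were apart from each other at e10.5, in the order cMN7, cMN3, cMN4, and all overlapped at e11.5. At e10.5 *Notch1* was lower in cMN3 and cMN4 than in cMN7 (-1.29 ± 0.31, adjusted p = 0.0205). That call was lost without cMN3 replicate 1 (adjusted p = 0.0535), cMN4 replicate 1 (0.0718), cMN7 replicate 1 (0.108) or cMN7 replicate 2 (0.157) at e10.5, and with cMN3 alone (-1.09, adjusted p = 0.0744).

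Over both ages *Notch1* in cMN3 and cMN4 was at -0.72 ± 0.22 against cMN7 (adjusted p = 0.0607) on the log2 scale. It passed in 9 of the alternative fits and not in 12. Among the 9 were DESeq2 (-0.73, adjusted p = 0.0103), limma on log2(TPM + 1) (-1.04, adjusted p = 0.0256) and on log2(TPM + 0.1) (-1.08, adjusted p = 0.0295). The fit without a filter passed too, as did the replicate block at both ages (-0.71, adjusted p = 0.0175) or at e11.5 (-0.70, adjusted p = 0.00837). It also passed without replicate 1 (-0.60, adjusted p = 0.0445) or replicate 2 (-0.91, adjusted p = 0.00403) of cMN4 at e11.5 or e11.5 cMN7 replicate 1 (-0.93, adjusted p = 0.0152). The difference between cMN3 and cMN4 was -0.05 ± 0.26 (adjusted p = 0.97). *Notch1* was lower at e11.5 (-0.72 ± 0.22, adjusted p = 0.0163), with -1.48 ± 0.38 within cMN7 (adjusted p = 0.0135), against -0.79 ± 0.37 in cMN3 (adjusted p = 0.14) and 0.12 ± 0.37 in cMN4 (adjusted p = 0.847). The call over all nuclei was lost without e10.5 cMN4 replicate 2 (adjusted p = 0.0634) and with limma on log2(TPM + 1) (0.239).

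*Hes5* (chr4:154960923-154962371, plus strand), the effector whose promoter window holds the 2 RBPJ cores shown above, ranged from 1.11 to 31.1 CPM over the 12 libraries. At e10.5 its level was 1.11 and 1.30 CPM in cMN3, 4.92 and 9.53 CPM in cMN4, and 12.6 and 14.8 CPM in cMN7. At e11.5 it was 14.7 and 5.52 CPM in cMN3, 20.6 and 14.3 CPM in cMN4, and 31.1 and 17.3 CPM in cMN7. The order was cMN7, cMN4, cMN3 at both ages. The nuclei were apart at e10.5, whereas neighbours overlapped at e11.5. The cMN3 level at e10.5 rests on 21 and 15 counts, and it enters the e10.5 comparisons and the change between ages given here. cMN3 and cMN4 were lower than cMN7, with log2 fold changes of -1.55 ± 0.28 over both ages (adjusted p = 0.00325) and -2.23 ± 0.41 at e10.5 (adjusted p = 0.00494), against -0.87 ± 0.38 at e11.5 (adjusted p = 0.345).

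The difference in *Hes5* from cMN7 did not pass for cMN4 by itself. With cMN4 alone against cMN7 the log2 fold change was -0.71 over both ages (adjusted p = 0.237) and -0.94 at e10.5 (adjusted p = 0.317), and the e10.5 call for the pair was also lost without e10.5 cMN7 replicate 2 (adjusted p = 0.0505). cMN3 was lower than cMN4 (log2 fold change -1.68 ± 0.36, adjusted p = 0.0178), a call lost without replicate 1 (adjusted p = 0.0662) or replicate 2 (0.057) of cMN3 or cMN4 replicate 2 (0.0665) at e10.5. At e10.5 alone that difference was -2.58 ± 0.56 (adjusted p = 0.0185) and at e11.5 alone -0.78 ± 0.46 (adjusted p = 0.735). *Hes5* was higher at e11.5 by 1.73 ± 0.29 (adjusted p = 0.000492), a call that held in every alternative fit, and by 3.08 ± 0.55 within cMN3 (adjusted p = 0.00268), against 1.28 ± 0.47 in cMN4 (adjusted p = 0.0766) and 0.82 ± 0.46 in cMN7 (adjusted p = 0.199).

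*Hes1* (chr16:30064384-30067796, plus strand), the other effector, stood out in 1 group. At e11.5 cMN4 had 4.83 and 15.5 CPM, whereas cMN3 had 0.978 and 2.07 CPM and cMN7 had 1.15 and 1.69 CPM. At e10.5 it was 1.32 and 3.31 CPM in cMN3, 1.33 and 3.30 CPM in cMN4, and 0.595 and 1.35 CPM in cMN7. cMN4 was apart from the other nuclei at e11.5, and all neighbours overlapped at e10.5, where *Hes1* had only 10 to 38 counts per library. *Hes1* passed none of the main tests: it was 1.35 ± 0.48 for cMN3 and cMN4 over cMN7 (adjusted p = 0.104), -1.37 ± 0.52 for cMN3 over cMN4 (adjusted p = 0.151) and 0.71 ± 0.43 between ages (adjusted p = 0.189). With cMN4 alone against cMN7 it passed at 2.03 (adjusted p = 0.0345), and DESeq2 called the first difference (1.35, adjusted p = 0.0396). A replicate block at both ages, although the numbers did not pair the samples over all genes at e10.5, called *Hes1* in each of these comparisons (1.28, adjusted p = 0.0136; -1.31, adjusted p = 0.0279; 0.72, adjusted p = 0.0365). Replicate 2 of cMN4 at e11.5, where *Hes1* was highest, also had the highest level of *Mki67* (176.5 CPM, against 9.89 to 90.4 CPM elsewhere), *Sox2* (33.5 CPM, against 5.53 to 13.7), *Notch3* (81.4 CPM, against 9.22 to 32.7) and *Heyl* (20.4 CPM, against 0.694 to 3.83), genes of cycling or progenitor cells and of the Notch pathway that were chosen after their values were seen. Other genes of the Notch pathway went both ways in that library. *Hes3* and *Lfng* were also highest there. *Jag2* (22.3 CPM, against up to 55.5 CPM elsewhere), *Hey1* (26.2 CPM, against up to 34.2 CPM) and *Nrarp* (5.02 CPM, against up to 21.4 CPM) were among those that were not. The summed level of the 18 neural progenitor markers did not stand apart there, at 1713 CPM against 1125 to 2385 CPM in the other libraries. In that library *Vim*, *Nes*, *Nkx6-1* and *Msi1* weighed most in this sum. Gene by gene, *Sox2*, *Sox3*, *Nes*, *Fabp7*, *Slc1a3*, *Prom1*, *Notch3*, *Rfx4* and *Ednrb* were highest in that library. The others, *Sox1*, *Sox9*, *Pax6*, *Vim*, *Msi1*, *Nkx6-1*, *Nkx6-2*, *Nkx2-2* and *Hopx*, were not. The part of these genes in the level of *Hes1* was not tested.

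The 2 replicates at e11.5 differed together in the 3 nuclei. *Hes5* was lower in replicate 2 of every nucleus, with log2 ratios of -1.42 in cMN3, -0.53 in cMN4 and -0.85 in cMN7, whereas at e10.5 it was 0.23 to 0.95 higher in replicate 2. *Hes1* was higher in replicate 2 of every nucleus at both ages, with log2 ratios of 1.18 to 1.32 at e10.5 and, at e11.5, of 0.56 to 1.69. *Neurog2* and *Notch1* were higher in replicate 2 of cMN4 and cMN7 at e11.5, by 2.51 and 2.03 for *Neurog2* and 1.27 and 0.98 for *Notch1*, and near equal in cMN3, at -0.17 and -0.03. Fitted over the nuclei at e11.5, replicate 2 against 1 called 4.31% of all genes (1.61% higher and 2.69% lower) and 0 of 9 members by edgeR. Unadjusted p was under 0.05 for 5 members, *Hes5* (-0.92 ± 0.25, adjusted p = 0.0626), *Notch1* (0.75 ± 0.21, adjusted p = 0.0731), *Neurog2*, *Hes1* and *Atoh1*, and DESeq2 called *Hes5* and *Notch1*. *Notch1* passed without replicate 1 (1.13, adjusted p = 0.0129) or replicate 2 (1.13, adjusted p = 0.0126) of cMN3 at e11.5, and *Hes5* passed without replicate 1 (-0.92, adjusted p = 0.0324) or replicate 2 (-0.92, adjusted p = 0.0337) of cMN4 at e10.5. The median log2 fold change was 0.75 over the members and 0.05 over all genes. In the same comparison 4 of 16 cell cycle genes and 3 of 7 tested erythroid genes were higher in replicate 2, and 3 of 9 motor neuron genes were lower, and their part in the members' differences was not tested.

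**Figure D3:**
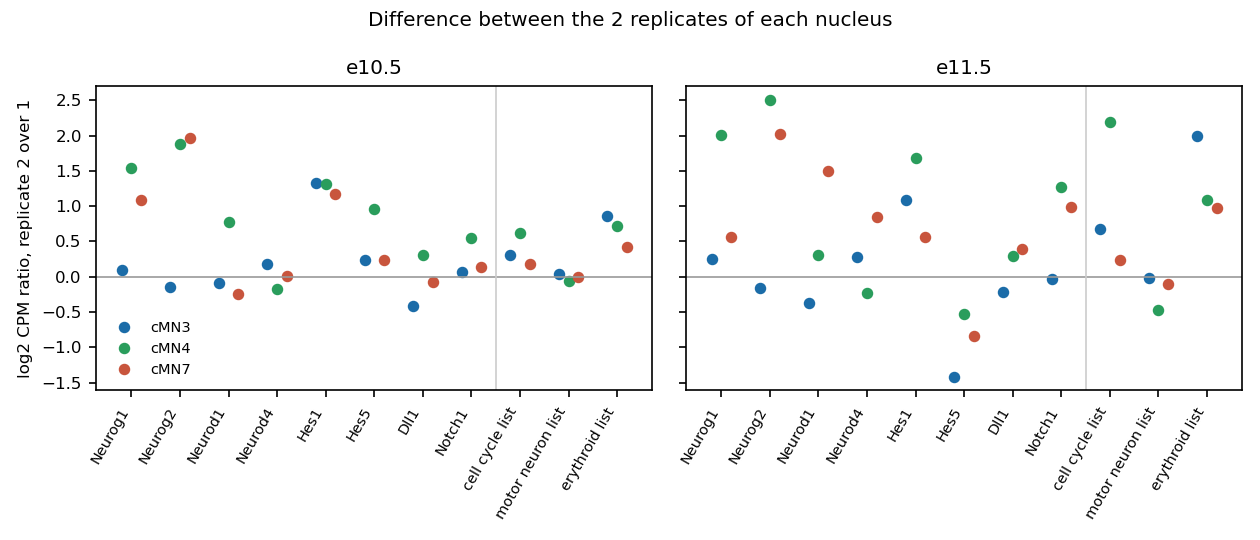
Log2 ratio of CPM in replicate 2 over replicate 1 for 8 members and, right of the grey line, for the summed CPM of 3 marker lists, in each nucleus at e10.5 and e11.5. At e11.5 *Hes5* lay below 0 in all 3 nuclei and *Hes1* above 0, and the cell cycle list reached 2.19 in cMN4.

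Of 38 other genes of the Notch pathway (ligands, receptors, processing enzymes, cofactors and targets), 37 were tested. Against cMN7 over both ages, 1 was higher in cMN3 and cMN4 and 3 were lower, with a median log2 fold change of -0.10, a share close to the 11.2% of all genes. The one that was higher is *Jag1*, a ligand of another class than *Dll1*, with a log2 fold change of 1.47 ± 0.11. Its level at e10.5 was 306 to 343 CPM in cMN3 and cMN4 against 149 and 117 CPM in cMN7, and at e11.5 it was 83.7 to 105 CPM against 24.2 and 34.5 CPM, so the groups did not overlap at either age. The 3 that were lower are the effector *Hey1* (-0.74 ± 0.11), the ligand-like *Dll3* (-0.48 ± 0.10) and *Numbl*, a relative of the Notch inhibitor Numb (-0.50 ± 0.14). At e10.5, 2 were higher and 4 lower (median -0.27), with *Jag1* at 1.28 and *Hey1* at -0.81, and at e11.5 *Jag1* (1.67) and *Hey1* (-0.68) alone passed (median -0.02). *Dll1* and *Jag1* therefore had opposite signs between these nuclei, each by its own test.

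Between cMN3 and cMN4, 2 genes of the Notch pathway were higher in cMN3 (the gamma-secretase subunit *Psenen*, 0.63 ± 0.15, and the glycosyltransferase *Rfng*, 0.53 ± 0.13) and 1 was lower (the ligand *Dll4*, -3.11 ± 0.63), with a median of -0.07. The share over all genes was 7.06%, so the count is near the background. Between ages 9 were higher and 10 lower at e11.5 (median 0.13), which is again near the share of all genes, 49.8%. The lowest p-values belonged to *Jag1* (-1.92 ± 0.10), *Dll3* (-1.80 ± 0.10), the coactivator *Maml3* (-0.94 ± 0.08) and the ubiquitin ligase *Mib1* (-1.32 ± 0.13), which is needed for ligands to signal. The interaction called 0 of the 37 by edgeR, and replicate 2 against 1 at e11.5 called *Mib1* (0.50) higher and *Jag2* (-0.88) lower.

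Among 26 other genes of the proneural network (partners, inhibitors and targets of the bHLH factors), 21 were tested. The list was chosen with earlier results of these data known, so its counts are no independent comparison with all genes. Over both ages 12 were lower in cMN3 and cMN4 than in cMN7 and none was higher, with a median log2 fold change of -0.46, where 6.18% of all genes were lower. They include the neuronal bHLH genes *Nhlh1* (-1.26 ± 0.10) and *Nhlh2* (-0.81 ± 0.10), and *Rnd2* (-0.91 ± 0.10), a GTPase of migrating neurons. At e10.5, where 6.16% of all genes were lower, 11 were lower and none higher (median -0.63), among them *Nhlh2* (-1.16), *Nhlh1* (-1.15) and *Rnd2* (-0.77). At e11.5, where 2.71% of all genes were lower, the 4 lower genes were *Nhlh1* (-1.37), *Rnd2* (-1.05), *Olig3* (-3.36) and the bHLH inhibitor *Id2* (-1.34), with a median of -0.45. The interneuron markers were high in the same cMN7 libraries, with 2 of 14 lower in cMN3 and cMN4 at e10.5 (median -0.65), and their part in this was not tested.

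Between cMN3 and cMN4, 1 gene of the proneural network was higher in cMN3 and 6 were lower, among them *Insm1* (-0.77 ± 0.10), *Bhlhe22* (-0.82 ± 0.13) and *Id1* (-2.25 ± 0.41), with a median of -0.03, against 7.06% of all genes called. Between ages 5 were higher and 11 lower at e11.5 (median -0.53) against 49.8% of all genes called, led by *Insm1* (-1.27 ± 0.09), *Bhlhe22* (-1.23 ± 0.11), *Rnd2* (0.91 ± 0.09) and *Myt1* (-0.62 ± 0.09). The interaction with age called 2 of the 21, among them *Insm1* (0.94 ± 0.18), which was below cMN7 at e10.5 (-0.56 ± 0.12, adjusted p = 0.0144) and not at e11.5 (0.38 ± 0.13, adjusted p = 0.166), against 0.755% of all genes. Replicate 2 against 1 at e11.5 called *Tcf4* (0.75) higher and *Gadd45g* (-0.89) lower.

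**Figure D4:**
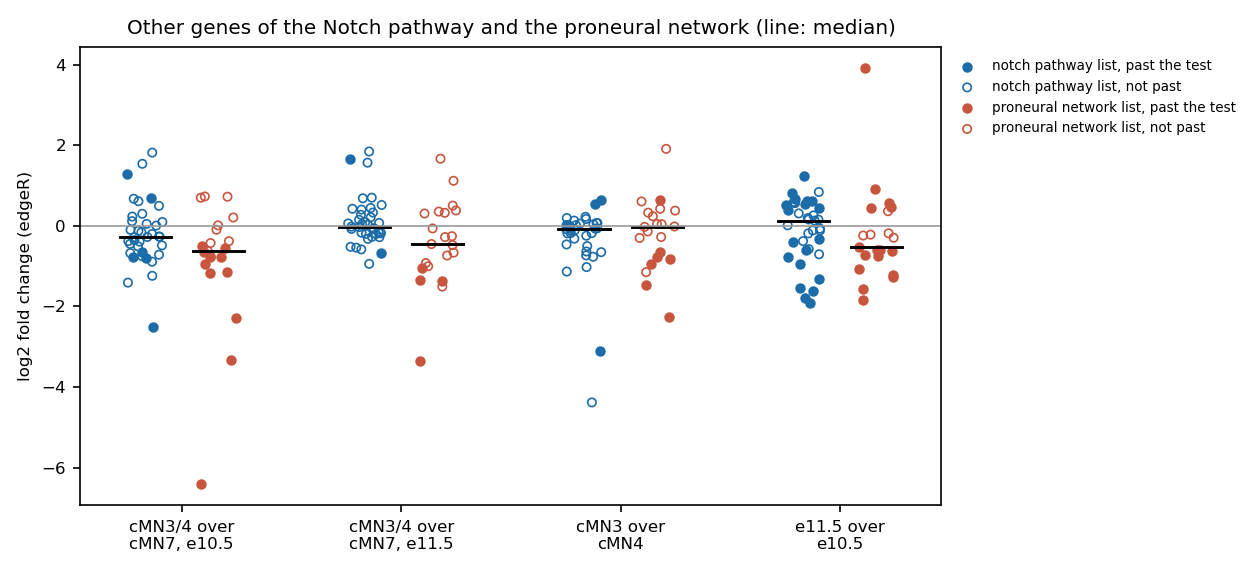
Log2 fold change of the 37 other Notch pathway genes (blue) and the 21 other proneural network genes (red) in 4 comparisons; filled points passed the test, open points did not, and the line is the median. In both comparisons with cMN7 every red point that passed lies below 0, and the medians were -0.63 at e10.5 and -0.45 at e11.5. Both lists were chosen with earlier results of these data known.

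Likeness across libraries was measured as Pearson's r of log2 CPM over the 12 libraries after the mean of each age was removed, among 11270 genes. The 3 genes most like *Neurog2* were *Lef1*, *Fzd10* and *Kctd12b* (r = 0.93, 0.93 and 0.92). Those most like *Hes1* were *Metrn*, *Sox21* and *E2f8* (0.94, 0.94 and 0.94), and those most like *Hes5* were *Rcc2*, *Ctdp1* and *Sox4* (0.96, 0.95 and 0.95). For *Neurod1* they were *Flrt1*, *Nckap5* and *Gad2* (0.95, 0.94 and 0.94), for *Dll1* they were *Irs2*, *Grik3* and *Nav2* (0.95, 0.93 and 0.92), and for *Notch1* they were *Fn1*, *Bcl2l11* and *Prex2* (0.95, 0.93 and 0.93). *Neurod4* had the weakest matches, *Filip1l*, *Zeb1* and *Phactr2* (0.84, 0.82 and 0.81), and *Neurog1* was matched by *Gnpda1*, *Phldb2* and *Bud13* (0.93, 0.92 and 0.91). These values describe 12 libraries that share nucleus, replicate and preparation, and they were picked as the highest of many.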

How the data were processed

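The authors aligned the reads by STAR (Ensembl build GRCm38.87). RSEM gave the deposited values, which are an expected count per gene, not normalized, and a TPM that rests on an effective length in bases. DESeq2 is the test the authors name, with no formula in the methods. No deposited fold changes were used.

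The members and lists were chosen with earlier results of these data known. Of 49671 identifiers, 49326 had a symbol. Counts were rounded, 18022 genes passed edgeR's filter (minimum count 10, minimum total 15), and TMM factors were 0.732 to 0.967 (e10.5) and 1.11 to 1.22 (e11.5). CPM is counts over the scaled library total. Differences were tested by edgeR's quasi-likelihood test over the 6 groups (6 residual degrees of freedom) with Benjamini-Hochberg adjustment over all genes at 0.05, and the SE is the log2 fold change over the root of F. Replicate 2 against 1 at e11.5 was 1 added term. Genes were named as follows: all members; of each list, up to 4 genes past a test with the smallest p; and 3 like genes for each member. For 1 list gene that this rule names, the values are not reported here. *Mki67*, *Sox2*, *Notch3*, *Heyl* and the other Notch pathway genes named beside *Hes1* were chosen after their values were seen. So were list genes named by replicate or interaction, and the tests within 1 nucleus or 1 age. The neural progenitor markers named beside *Hes1* are the whole list.

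Deviations of replicates from their group means correlated between nuclei at 0.58 to 0.73 at e11.5 and at -0.01 to 0.10 at e10.5 over 7805 genes, so same-numbered replicates were paired at e11.5 only, from the data and not the labels. The alternatives were DESeq2, RLE factors, no filter, limma on log2(TPM + 1) and log2(TPM + 0.1), replicate blocks, each ocular nucleus alone, and leaving out each library. The test was run on simulated counts with a common dispersion, drawn independently between libraries. That check covered the sign of called changes and their correlation with the true ones. It held no shared replicate effect and set no limit on false calls. *Atoh1* had the fewest counts of the members (62 over all libraries), and reads carry no molecular identifiers. R 4.3.3, edgeR 4.0.16, limma 3.58.1 and DESeq2 1.42.0 were used. Gene coordinates are from GENCODE vM21 (GRCm38).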

Additional observations from a re-analysis of the deposited data

How the results depend on the processing

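Of 1507 recomputed values, 1284 kept their direction and call, 34 lost a call, 57 gained one, 53 changed sign and 79 were counts that moved by over 1.5 times; the cause was not tested except where fewer libraries or genes entered. RLE factors moved none of these. Members past the test over both ages were 5 instead of 2 with DESeq2, without a filter and with the replicate block at both ages, and 4 with the block at e11.5 alone or with cMN3 alone. At e10.5 they were 2 with either ocular nucleus alone (1180 genes with cMN4 alone). At e11.5 they were 1 with DESeq2, the block at both ages or cMN3 alone, and 3 without a filter, and the genes called were 1508 without a filter, 565 on log2(TPM + 1) and 449 on log2(TPM + 0.1). For cMN3 over cMN4 members were 5 without a filter or with the block at both ages, and genes 2077 with DESeq2, 2118 without a filter, 601 and 580 on the TPM scales and 1958 with the block at e11.5. Between ages members were 2 on both TPM scales. For the interaction they were 1 with DESeq2 or the block at e11.5 and 3 without a filter, and genes 701, 851, 49, 19 and, with the block at e11.5, 537. For replicate 2 over 1 they were 2 with DESeq2 and 3 without a filter, and genes 1905, 1875, 2 and 4. The blocks changed no other count by over 1.5 times, and the block at e11.5 changed the call of no member beyond those given in the text.

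Signs turned for *Neurod1* with cMN3 alone (0.96 over both ages, 0.13 at e10.5) and cMN4 alone (-0.19 at e11.5), for *Neurog1* with cMN4 alone (-0.070 and, at e10.5, -0.86) and on the TPM scales at e10.5 (-0.18 and -0.26), for *Notch1* at e11.5 with cMN4 alone (0.10) and in cMN3 over cMN4 with the blocks (0.023 and 0.030), and for *Neurod4* with cMN4 alone over both ages (0.012) and, at e11.5, without a filter (0.0014), on the TPM scales (0.15 and 0.15), with the blocks (0.0012 and 0.020) and with cMN4 alone (0.33). They also turned between ages for *Dll1* on the TPM scales (0.27 and 0.28) and for *Neurog2* (-0.59) and *Atoh1* (-0.34) with the block at e11.5, and for *Hes1* in the interaction on the TPM scales (-0.059 and -0.30). Of these, *Neurod1* over both ages with cMN3 alone passed the test.

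With each library left out in turn, members past the test ran from 1 to 4 over both ages (genes 1160 to 2238), 0 to 4 at e10.5 (654 to 2546), 0 to 1 at e11.5 (607 to 1764), 1 to 4 for cMN3 over cMN4 (556 to 1575), 2 to 5 between ages, 0 to 3 for the interaction (18 to 1562) and 0 to 1 for replicate 2 over 1 (9 to 899). Fold changes whose sign turned ran from -0.57 to 0.18 for *Neurod1* and -0.31 to 0.12 for *Neurod4* over both ages; from -0.27 to 0.84 for *Neurog1* at e10.5; from -0.38 to 0.48 for *Neurod4*, -0.58 to 1.88 for *Atoh1* and -0.55 to 0.44 for *Notch1* at e11.5; from -1.86 to 1.23 for *Atoh1* and -0.30 to 0.33 for *Notch1* in cMN3 over cMN4; from -0.13 to 0.017 for *Dll1* and -0.31 to 0.70 for *Neurog2* between ages; from -0.44 to 0.72 for *Hes1*, -0.18 to 2.46 for *Neurog2* and -0.13 to 0.73 for *Neurod4* in the interaction; and from -0.055 to 0.90 for *Neurod1* in replicate 2 over 1. On log2(TPM + 1) the share of called genes that were higher in the first group went from 45.0% to 27.1% over both ages, 50.6% to 34.8% for cMN3 over cMN4 and 41.2% to 87.8% for the interaction, and the replicate comparison kept 2 calls, both lower.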
